A study of Mus musculus with 9 samples.

Results

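Cytotoxic lymphocytes, which are chiefly CD8 T cells and natural killer (NK) cells, kill a target cell by releasing granules onto it. Perforin opens the target's membrane and granzymes, a family of serine proteases, enter and cleave proteins inside it. Activating and inhibitory receptors of the killer cell lectin-like family decide whether a cell is attacked, and interferon-gamma is the cytokine such cells secrete. In tumours these genes are commonly read as a measure of lymphocyte effector activity. The 10 genes described here were taken by symbol from a table of 35321 genes, and all 10 were in it. They were the granzymes Gzma, Gzmb and Gzmk, the perforin gene Prf1, the granule membrane protein gene Nkg7, the transcription factor gene Eomes, the receptor genes Klrd1, Klrk1 and Ncr1, and the cytokine gene Ifng.

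Poly(A) RNA was sequenced from 9 samples of tumours grown from LLC cells, a Lewis lung carcinoma line derived from C57BL/6, implanted under the skin of the right flank. Recipients were males of the same strain, 4 to 5 weeks old. From day 5 they were given PBS as vehicle, or digoxin in a low dose of 0.1 mg/kg or a high dose of 1 mg/kg, all by intraperitoneal injection. Each group had 3 samples. Digoxin is a cardiac glycoside that blocks the sodium-potassium pump. The labels do not say that each sample came from a separate mouse, so p-values measure the spread between these samples. Values are FPKM, which is reads scaled to gene length and to library size. The total behind them, recovered from the spacing of the values, was 40517062 to 51810956 reads per sample.

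On the first principal component, which held 69.4% of the variance, the vehicle samples lay between -55.0 and -47.6 and 4 of the 6 digoxin samples between 35.7 and 37.9. Sample 2 at the low dose (-0.60) and sample 1 at the high dose (9.12) lay between them, so key results are also given without these 2 libraries. Both were picked by their place in these same data, so a call made without them is a description and no support. These are whole tumours, so fewer cells of a type and less RNA per cell cannot be told apart. The 7 NK markers summed to 13.8 to 31.8 FPKM per sample, with Klra4 (3.92 to 19.9) and Gzma (3.27 to 9.74) the most abundant and Klrb1c, Klre1 and Klra8 at 0.129 to 0.711. The 2 CD8 markers, Cd8a and Cd8b1, summed to 2.43 to 12.7 FPKM. Digoxin changed much of the transcriptome: 13687 genes reached 1 FPKM in 3 samples or more, and of these 42.2% passed the test at the low dose against vehicle and 45.9% at the high dose.

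The promoters of Gzmb, Prf1, Nkg7 and Ifng are shown because the 4 genes cover the protease, the pore, the granule membrane and the cytokine, and because their levels took 2 different courses across the doses. RefSeq windows of the mouse build GRCm38.p6, from 250 bases before to 50 after the start site, matched 9 of the 10 genes. Klrd1 had no window. Sequences run 5′ to 3′ on the gene's own strand, and capitals mark matches to 6 motifs on either strand: T-box AGGTGT, Runx TGTGGT, AP-1 TGANTCA, gamma-activated site TTCNNNGAA, interferon response (GAAA, any 2 bases, GAAA) and NFAT TGGAAA.
Gzmb (chr14:56262285-56262584, minus strand): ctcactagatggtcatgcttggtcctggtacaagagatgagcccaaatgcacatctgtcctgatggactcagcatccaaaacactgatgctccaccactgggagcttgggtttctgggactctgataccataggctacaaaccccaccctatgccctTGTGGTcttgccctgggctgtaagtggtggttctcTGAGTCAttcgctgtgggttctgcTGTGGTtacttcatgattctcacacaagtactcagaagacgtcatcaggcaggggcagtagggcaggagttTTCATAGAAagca
Prf1 (chr10:61297586-61297885, plus strand): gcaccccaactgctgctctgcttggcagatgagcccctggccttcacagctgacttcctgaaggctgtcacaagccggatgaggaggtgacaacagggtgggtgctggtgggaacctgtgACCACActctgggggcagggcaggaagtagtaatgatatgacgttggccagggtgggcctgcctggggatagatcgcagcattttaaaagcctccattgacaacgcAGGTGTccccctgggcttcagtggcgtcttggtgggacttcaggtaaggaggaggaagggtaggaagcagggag
Nkg7 (chr7:43436888-43437187, plus strand): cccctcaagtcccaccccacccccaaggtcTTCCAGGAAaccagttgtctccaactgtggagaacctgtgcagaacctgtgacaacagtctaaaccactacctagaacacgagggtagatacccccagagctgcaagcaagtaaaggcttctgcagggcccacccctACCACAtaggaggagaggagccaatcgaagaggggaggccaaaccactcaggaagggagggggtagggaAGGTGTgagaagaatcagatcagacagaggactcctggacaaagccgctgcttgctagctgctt
Ifng (chr10:118440796-118441095, plus strand): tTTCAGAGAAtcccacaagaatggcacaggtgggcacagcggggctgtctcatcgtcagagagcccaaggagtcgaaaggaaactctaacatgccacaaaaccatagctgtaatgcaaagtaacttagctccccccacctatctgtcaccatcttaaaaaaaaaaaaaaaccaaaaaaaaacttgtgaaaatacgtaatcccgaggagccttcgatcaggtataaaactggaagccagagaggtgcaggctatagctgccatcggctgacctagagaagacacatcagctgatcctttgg
T-box letters, the core read by Eomes and its relative T-bet, stood in the windows of Gzma, Gzmk, Prf1 and Nkg7, which is 4 of the 9 genes, against 13.7% of all 32851 windows in the table. In Prf1 and Nkg7 they began 24 and 14 bases before the start site. Runx letters stood in 6 windows (Gzma, Gzmb, Prf1, Nkg7, Klrk1 and Ncr1) against 16.8% of all. AP-1 letters were found in Gzmb and Klrk1 (7.81% of all windows), the gamma-activated site in Gzmb, Nkg7 and Ifng (8.3%), and the interferon response and NFAT letters in Gzma and Eomes (3.44% and 21.4%). In Gzma the 2 latter matches overlap each other. A match is a stretch of letters and was not tested as a binding site.

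At the low dose, the genes for granzyme B, perforin, Nkg7, Eomes and Klrd1 rose over vehicle, by 2.22-fold to 9.28-fold in mean FPKM. At the high dose, Eomes rose 12.5-fold, Gzmb 2.25-fold and Prf1 3.19-fold, and Gzmk fell from 1.72 to 0.435 FPKM. Gzma did not pass the test at either dose. Klrk1, Ncr1 and Ifng were below the expression filter and are given by their values. Tests were made with limma on log2(FPKM + 1), with p-values adjusted over all 13687 genes. Differences called log2 are on that scale, which understates the change of low genes.

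**Figure D1:**
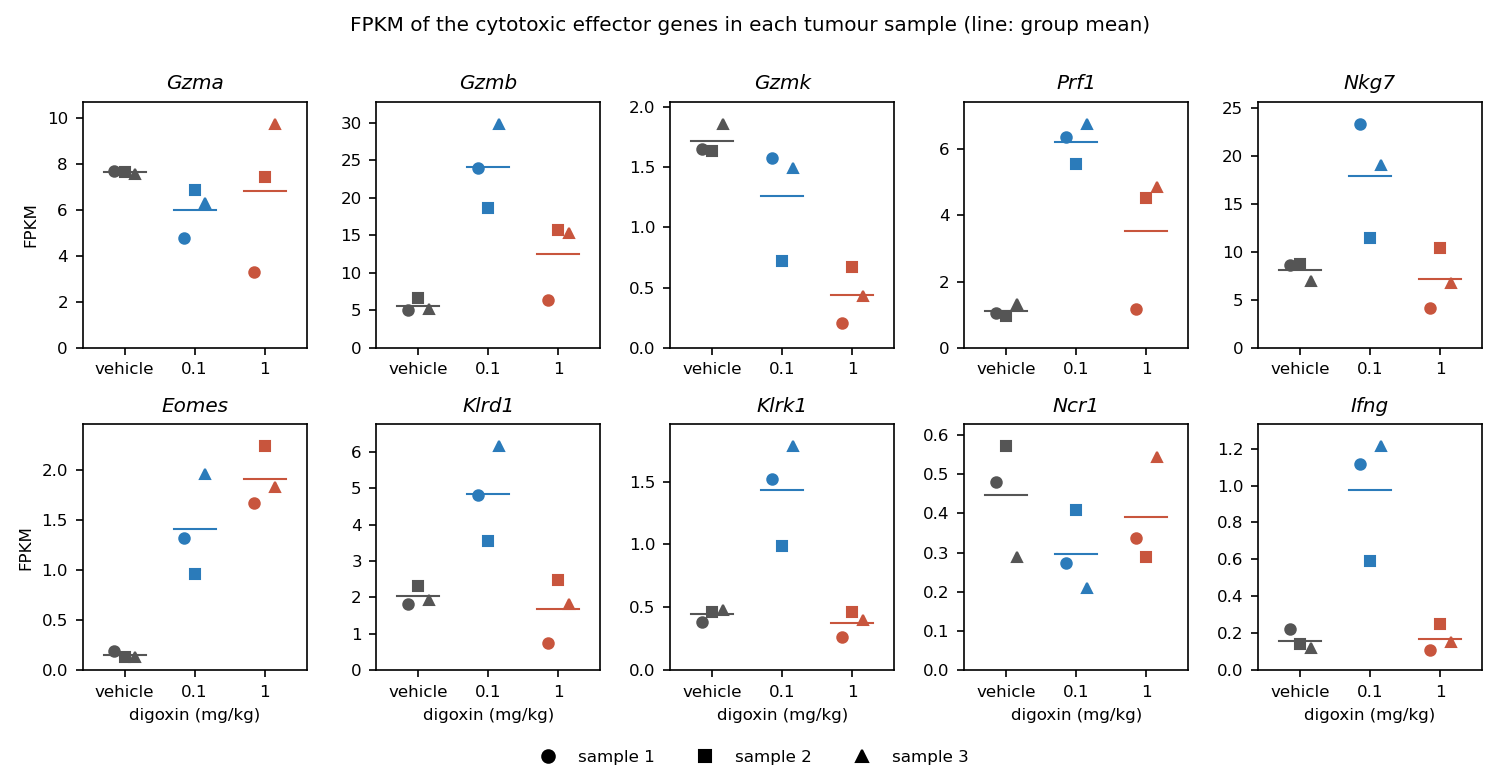
FPKM of the 10 genes in each sample (y axis, from 0) by dose of digoxin (x axis, mg/kg). Each point is 1 sample, shaped by sample number, and each line is a group mean. Gzmb, Prf1, Nkg7, Klrd1, Klrk1 and Ifng are highest in the samples at the low dose, Eomes is high at both doses, and Gzmk is lowest at the high dose.

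Gzmb, whose product granzyme B cleaves caspases and other substrates in the target cell, stood at 4.98, 6.61 and 5.09 FPKM in the vehicle samples. At the low dose Gzmb measured 24.1, 18.6 and 29.9 FPKM, all above vehicle. It was at 6.38, 15.8 and 15.3 FPKM with the high dose. Sample 1 at the high dose thus lay inside the vehicle range, and the other two lay between vehicle and the low dose. The log2 difference from vehicle was 1.92 at the low dose (SE 0.31, adjusted p 0.00256), a 4.35-fold rise in mean FPKM from 5.56 ± 0.910 to 24.2 ± 5.64 (SD, n = 3). This call held in all 9 fits that left out 1 library. For the high dose the log2 difference was 0.95 (SE 0.31, adjusted p 0.0332). That call was lost without vehicle sample 1, 2 or 3 (adjusted p 0.0924, 0.0554 and 0.0934), without sample 2 or 3 at the high dose (0.107 and 0.109), with no expression filter (0.0850), and in limma-voom on recovered reads (0.0537).

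Perforin forms the pores through which granzymes enter. Prf1 was at 1.05, 0.959 and 1.31 FPKM with vehicle, at 6.38, 5.55 and 6.77 at the low dose, and at 1.16, 4.53 and 4.87 at the high dose. As with Gzmb, the low dose stood clear of vehicle and sample 1 at the high dose lay within the vehicle range. With 2 vehicle samples at 1 FPKM or more, Prf1 would not have entered the test on vehicle values alone. Prf1 rose by log2 1.78 at the low dose (SE 0.33, adjusted p 0.00453), 5.64-fold in mean FPKM, and this held in all 9 fits without 1 library. The high dose gave a difference of log2 0.97 (SE 0.33, adjusted p 0.0401). Of the 9 fits without 1 library, that call held only without sample 1 at the high dose. The adjusted p was 0.0953, 0.108 and 0.0779 without vehicle samples 1 to 3, 0.0563, 0.0501 and 0.0559 without samples 1 to 3 at the low dose, and 0.128 and 0.132 without samples 2 and 3 at the high dose. Limma-voom gave 0.0588, and the fit with no expression filter 0.101. Without the 2 libraries that lay between the groups, both genes passed at the high dose, Gzmb with log2 1.34 (adjusted p 0.000113) and Prf1 with log2 1.44 (adjusted p 2.08e-05). Sample 1 at the high dose, left out there, is the sample that lay within the vehicle range for both genes. The fit without it is therefore a description and cannot support the calls. In that fit 61.3% of all tested genes passed, 31.4% higher and 29.9% lower.

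Gzma and Gzmk encode tryptase-type granzymes, and each took another course than Gzmb. Gzma, often the most abundant granzyme of NK cells, measured 7.70, 7.67 and 7.56 FPKM with vehicle, 4.78, 6.85 and 6.31 at the low dose, and 3.27, 7.42 and 9.74 at the high dose. All samples at the low dose lay below vehicle, and those at the high dose spanned it. The log2 differences from vehicle were -0.32 (95% interval -0.98 to 0.34, adjusted p 0.394) and -0.25 (-0.91 to 0.42, adjusted p 0.510). Without the 2 libraries between the groups, Gzma fell by log2 0.41 at the low dose (adjusted p 0.0267), where 61.5% of all tested genes passed, 31.9% higher and 29.6% lower, and the value at the high dose turned to 0.14. In vehicle tumours Gzma and Gzmb stood at 7.64 ± 0.0751 and 5.56 ± 0.910 FPKM, and at the low dose at 5.98 ± 1.08 and 24.2 ± 5.64 FPKM (SD, n = 3).

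Granzyme K marks a memory-like state of CD8 T cells that is often low in other granzymes. Gzmk measured 1.66, 1.64 and 1.86 FPKM with vehicle, 1.58, 0.721 and 1.5 at the low dose, and 0.204, 0.674 and 0.426 at the high dose. No sample at the high dose reached the lowest of either other group. None of them reached 1 FPKM, so Gzmk passed the filter through vehicle and low-dose samples only. Gzmk fell at the high dose by log2 0.93 (SE 0.19, adjusted p 0.00491), and mean FPKM was 3.95-fold higher in vehicle. This held in all 9 fits without 1 library. At the low dose the log2 difference of -0.29 did not pass (95% interval -0.71 to 0.14, adjusted p 0.239). The reads behind these values were few, 12 to 38 per sample at the high dose and 112 to 134 with vehicle.

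Nkg7, a membrane protein of cytotoxic granules that takes part in their release, was at 8.59, 8.75 and 6.88 FPKM with vehicle. It measured 23.3, 11.4 and 19.0 FPKM at the low dose and 4.09, 10.4 and 6.78 at the high dose. The low dose was above vehicle in every sample, while the high dose overlapped vehicle on both sides. Nkg7 rose by log2 1.01 at the low dose (SE 0.31, adjusted p 0.0310), 2.22-fold in mean FPKM. The call was lost without vehicle sample 1, 2 or 3 (adjusted p 0.0662, 0.0682 and 0.0985) and without sample 1 or 3 at the low dose (0.106 and 0.0954). It was also lost with a replicate block (0.0649) and with no expression filter (0.0797). The high dose gave log2 -0.24 for Nkg7 (95% interval -0.95 to 0.48, adjusted p 0.561).

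Eomes encodes a T-box transcription factor of NK cells and effector or memory CD8 T cells. Its values were 0.193, 0.130 and 0.135 FPKM with vehicle, 1.33, 0.958 and 1.96 at the low dose, and 1.67, 2.24 and 1.83 at the high dose. Every digoxin sample lay above every vehicle sample, including both libraries that lay between the groups elsewhere. Eomes passed the filter through digoxin samples only, since no vehicle sample reached 1 FPKM. It rose by log2 1.05 at the low dose (SE 0.16, adjusted p 0.00236) and by log2 1.33 at the high dose (SE 0.16, adjusted p 0.000832), or 9.28-fold and 12.5-fold in mean FPKM. Both calls held in all 9 fits without 1 library. In reads, 27 to 39 with vehicle stood against 171 to 377 with digoxin. The exons of Eomes overlap those of Gm33460 on the other strand over 118 bases, and the labels name no strand-specific protocol, so reads there cannot be assigned to one of them. Eomes's relative Tbx21, the gene of T-bet, was below the filter, at 0.520 to 0.768 FPKM with vehicle, 0.477 to 1.35 at the low dose and 0.152 to 0.515 at the high dose.

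Klrd1 (CD94) pairs with NKG2 proteins into receptors for the MHC class Ib molecule Qa-1. Klrd1 measured 1.83, 2.31 and 1.93 FPKM with vehicle, 4.81, 3.54 and 6.14 at the low dose, and 0.758, 2.46 and 1.81 at the high dose. The low dose was clear of vehicle and the high dose overlapped it. Klrd1 rose by log2 0.93 at the low dose (SE 0.25, adjusted p 0.0188), 2.39-fold in mean FPKM. This was lost without vehicle sample 1 or 3 (adjusted p 0.0579 and 0.0600) and without sample 1 or 3 at the low dose (0.0555 and 0.0722), and with no expression filter (0.0519). For Klrd1 the high dose gave log2 -0.23 (95% interval -0.80 to 0.34, adjusted p 0.482).

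Klrk1 (NKG2D), an activating receptor for stress-induced ligands, was below the filter, with 0.386, 0.465 and 0.478 FPKM with vehicle, 1.52, 0.989 and 1.78 at the low dose, and 0.264, 0.460 and 0.395 at the high dose. Klrk1 has a gene model of 7183 bases and had 80 to 554 reads per sample, against 41 to 341 for Klrd1 with 1281 bases. All samples at the low dose lay above vehicle (exact two-sided permutation test, p 0.1, the smallest 3 against 3 allows), and those at the high dose overlapped it (exact p 0.4). Ncr1 (NKp46), a receptor largely restricted to NK cells and innate lymphoid cells, measured 0.481, 0.571 and 0.288 FPKM with vehicle, 0.273, 0.408 and 0.210 at the low dose, and 0.338, 0.288 and 0.545 at the high dose. The 3 groups overlapped, with 14 to 44 reads per sample (exact p 0.2 and 0.7 for the doses against vehicle).

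Ifng was at 0.222, 0.139 and 0.119 FPKM with vehicle, at 1.12, 0.593 and 1.21 at the low dose, and at 0.110, 0.247 and 0.152 at the high dose. The low dose was above vehicle in every sample (exact permutation p 0.1) and 6.08-fold higher in mean FPKM, and the high dose overlapped vehicle (exact p 0.8). Reads numbered 33 to 68 at the low dose and 6 to 14 elsewhere, and 336 bases of the Ifng exons are shared with Gm49751 on the same strand. With a filter of 0.1 FPKM and limma-voom on recovered reads, a setting chosen after the data were seen, Klrk1 (log2 1.65, SE 0.28, adjusted p 0.00301) and Ifng (log2 2.54, SE 0.48, adjusted p 0.00470) passed at the low dose. In that fit 32.6% of 21482 genes passed, 18% higher and 14.5% lower. The same fit gave log2 -0.28 for Klrk1 (adjusted p 0.546) and 0.07 for Ifng (adjusted p 0.939) at the high dose, where 34.3% of all passed. For Ncr1 it gave -0.57 (adjusted p 0.342) at the low dose and -0.18 (adjusted p 0.768) at the high dose.

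Of the 7 tested genes, 5 rose at the low dose (Gzmb, Prf1, Nkg7, Eomes and Klrd1) and 0 fell, where 21.6% of all tested genes rose and 20.7% fell. Eomes is one of the 5 and entered the test only through its digoxin samples, so its part in these counts was fixed by the filter. Vehicle values alone would not have brought in Prf1 either, with 2 vehicle samples at 1 FPKM or more. The counts are therefore a description. With the high dose 3 rose (Gzmb, Prf1 and Eomes) and 1 fell (Gzmk), against 20.7% and 25.2% of all. Gzmk was under 1 FPKM in every sample at the high dose and entered the test through the other groups only. Its part in the count is therefore a description too. The median log2 difference of the 7 was 1.01 and -0.23, and that of all tested genes 0.02 and -0.04. Over all 10 genes, values at the low dose did not overlap vehicle for 9, of which 7 were higher, where 60.2% of tested genes did not overlap, 32.3% higher and 27.9% lower. At the high dose only Eomes (higher) and Gzmk (lower) did not overlap vehicle, against 58.3% of tested genes. The 2 doses share their vehicle samples, so the counts at the 2 doses are not independent of each other.

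**Figure D2:**
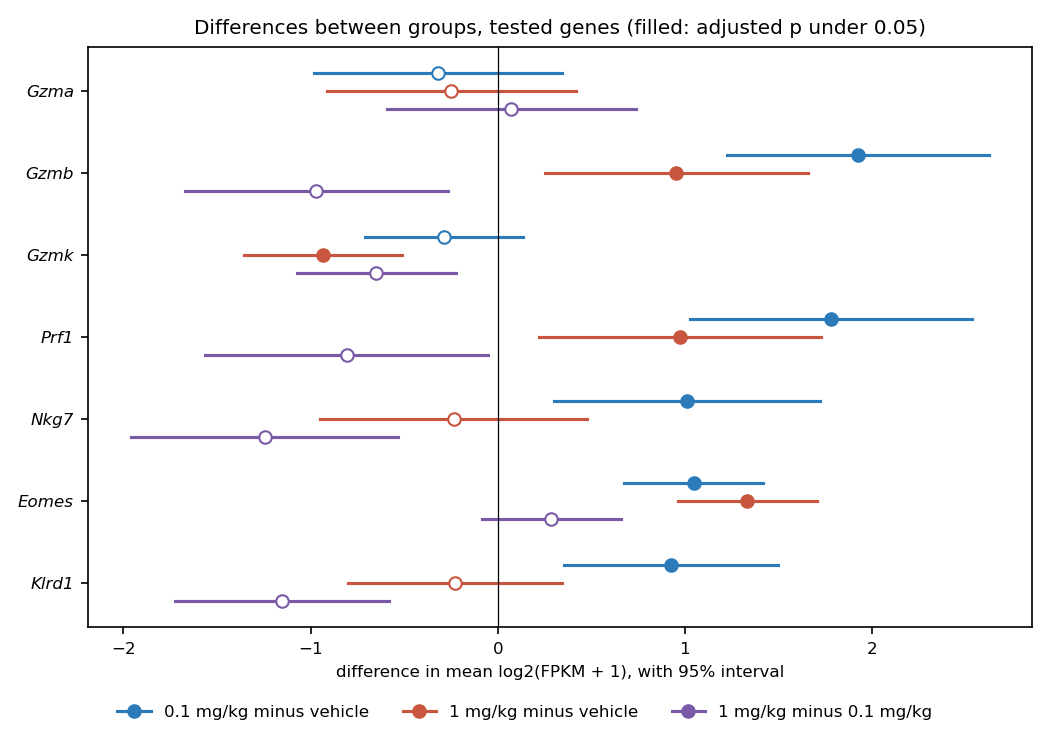
Differences between group means on the log2(FPKM + 1) scale (x axis) with 95% intervals for the 7 tested genes (y axis) in the 3 comparisons. Filled points have an adjusted p under 0.05: 5 genes at the low dose, 4 at the high dose and none between the doses.

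The doses were also set directly against each other. Mean FPKM of Nkg7 was 2.52-fold higher at the low than at the high dose, that of Klrd1 2.88-fold, Klrk1 3.84-fold and Ifng 5.74-fold. For Gzmb and Prf1 the ratio was 1.94-fold and 1.77-fold, and for Gzmk 2.91-fold. None of the 7 tested genes passed the test of this difference, and of all tested genes 0.0146% did. The log2 differences of the high from the low dose were -1.25 for Nkg7 (95% interval -1.96 to -0.53, adjusted p 0.162), -1.15 for Klrd1 (-1.73 to -0.58, adjusted p 0.120) and -0.97 for Gzmb (-1.67 to -0.27, adjusted p 0.238). For Gzmk and Prf1 they were -0.65 (adjusted p 0.203) and -0.81 (adjusted p 0.339). Eomes, in contrast, gave 0.29 (-0.09 to 0.66, adjusted p 0.499) and Gzma 0.07 (-0.59 to 0.74, adjusted p 0.946).

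Of these 7, 5 had an unadjusted limma p under 0.05 (Gzmb, Gzmk, Prf1, Nkg7 and Klrd1, p 0.00141 to 0.0389). So did 1856 of all 13687 tested genes. Values did not overlap between the doses for 7 of the 10 genes, all lower at the high dose: Gzmb, Gzmk, Prf1, Nkg7, Klrd1, Klrk1 and Ifng. The share of all tested genes without overlap was 17%, with 6.05% higher and 11% lower. Without the 2 libraries between the groups, 4 of the 7 fell from the low to the high dose: Gzmb by log2 0.75 (adjusted p 0.0373), Gzmk by 0.72 (0.0257), Nkg7 by 1.23 (0.0219) and Klrd1 by 1.05 (0.0156). In that fit of 7 samples 3.4% of all tested genes passed, of which 0.957% rose and 2.44% fell.

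The levels of the genes also took different orders within the groups. In vehicle tumours Nkg7 (8.07 ± 1.03 FPKM) and Gzma (7.64 ± 0.0751) stood above Gzmb (5.56 ± 0.910), and Klrd1 (2.02 ± 0.253), Gzmk (1.72 ± 0.123) and Prf1 (1.1 ± 0.180) followed. Nkg7 and Gzma did not differ beyond their spread, and neither did Klrd1 and Gzmk. At the low dose Gzmb (24.2 ± 5.64) and Nkg7 (17.9 ± 6.02) led, within their spread of each other, ahead of Prf1 (6.23 ± 0.623), Gzma (5.98 ± 1.08) and Klrd1 (4.83 ± 1.30). At the high dose Gzmb (12.5 ± 5.30), Nkg7 (7.09 ± 3.17) and Gzma (6.81 ± 3.28) overlapped, with Prf1 (3.52 ± 2.05), Eomes (1.91 ± 0.293) and Klrd1 (1.68 ± 0.860) below them (all SD, n = 3). In vehicle tumours Eomes had the lowest mean of the 10, 0.153 ± 0.0351 FPKM, within its spread of Ifng at 0.160 ± 0.0547.

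Over the 9 samples, Gzmb and Prf1 followed each other with a Pearson r of 0.975 on the log2(FPKM + 1) scale. Nkg7, Klrd1, Klrk1 and Ifng followed one another with r from 0.913 to 0.983. Eomes correlated with Gzmb and Prf1 at 0.721 and 0.716 but with Nkg7 and Klrd1 at 0.211 and 0.212, and r between Gzma and each other gene lay between -0.28 and 0.48. These values describe 9 samples that fall into 3 groups and share their libraries, and no p is given for them. Of 11693 other named genes, the 5 most like Gzmb were Nagk (r 0.991), Irag2, Tnfrsf4, Slc25a22 and Dnajc4 (0.981). The 5 most like Prf1 were Use1 (0.992), Dgka, Irag2, Rbks and Draxin (0.983), and those most like Ifng were Aif1 (0.987), Cd52, Bcl2a1d, Il10ra and Coro1a (0.973).

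Markers of T cells moved along with several of these genes. The summed FPKM of 11 T cell lineage markers was 21.6 to 26.5 with vehicle, 44.8 to 76.7 at the low dose and 9.06 to 32.5 at the high dose. Of the 8 tested markers 6 rose at the low dose and 0 passed at the high dose. At the low dose 1 to 7 passed in fits without 1 library, 1 with a replicate block and 2 to 7 under other scalings. Of all tested genes 21.6% rose at the low and 20.7% at the high dose, and 42.2% and 45.9% passed in either direction. The same shares stand behind the other marker lists. Cd3d, Cd3g, Trac, Trbc2 and Cd2 each missed without any one vehicle sample or without sample 1 or 3 at the low dose (adjusted p up to 0.154), Trbc2 and Cd2 also without sample 3 at the high dose. Cd8a measured 1.77 ± 0.165 FPKM with vehicle, 3.92 ± 1.05 at the low dose (log2 0.80, adjusted p 0.0230) and 1.09 ± 0.662 at the high dose (adjusted p 0.137). The Cd8a call was lost without any one vehicle sample or sample 1 or 3 at the low dose (adjusted p up to 0.0840). Cd3e was below the filter, at 0.358 to 0.568, 0.752 to 1.43 and 0.260 to 0.495 FPKM. Cd4 was at 1.36 ± 0.282, 1.43 ± 0.375 and 0.461 ± 0.358 FPKM and fell at the high dose by log2 0.72 (adjusted p 0.0197). That fall was lost without vehicle sample 2 or sample 3 at the high dose, with an adjusted p of at most 0.0746. Cd4 was at 0.135 to 0.844 FPKM at the high dose, so only the other groups brought it into the test.

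**Figure D3:**
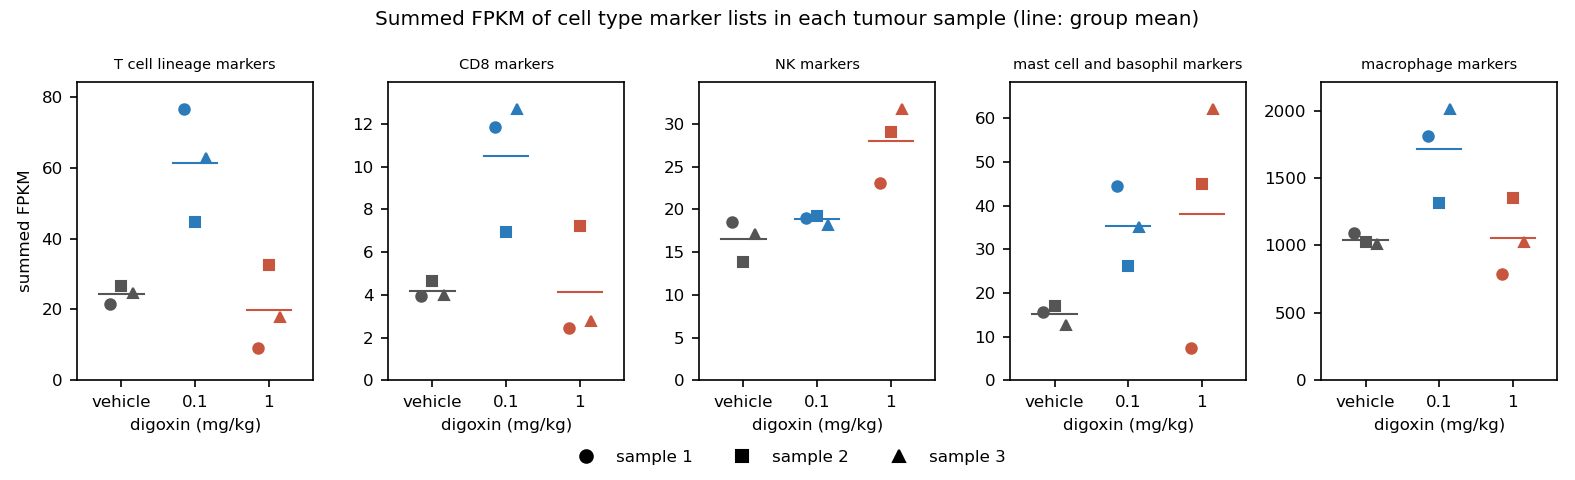
Summed FPKM of 5 marker lists in each sample (y axes, from 0) by dose of digoxin (x axis, mg/kg), with lines for group means. T cell and CD8 markers are highest at the low dose, NK markers at the high dose, where 18.6 to 19.9 of the 23.1 to 31.8 FPKM come from Klra4, and mast cell markers vary from 7.33 to 62.2 FPKM within the group at the high dose.

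The NK marker list, which contains Gzma and Ncr1 and so is no independent reading, summed to 13.8 to 18.5 FPKM with vehicle, 18.2 to 19.2 at the low dose and 23.1 to 31.8 at the high dose. Of its 3 tested genes Klra4, a receptor of the Ly49 family, rose at the high dose by log2 1.43 (adjusted p 0.00201), and 0 passed at the low dose. Ly49 genes are close copies of each other, so the reads of one may be counted for another. Klrb1c (NK1.1) was at 0.208 to 0.546 FPKM throughout. Mast cell and basophil markers, whose genes include further granule proteases, summed to 12.8 to 17.0, 26.1 to 44.6 and 7.33 to 62.2 FPKM, and 0 of 4 tested ones passed at either dose. Macrophage markers summed to 1010 to 1090, 1317 to 2015 and 789 to 1349 FPKM. CD4 and regulatory T cell markers summed to 1.74 to 2.49, 1.87 to 3.47 and 1.16 to 2.98 FPKM, and the 2 gamma-delta T cell markers found to 0.843 to 0.971, 0.872 to 1.22 and 0.667 to 1.45 FPKM. B cell markers summed to 1.59 to 2.15, 11.2 to 13.4 and 3.66 to 15.4 FPKM, dendritic cell markers to 8.03 to 9.15, 1.87 to 4.31 and 1.53 to 2.36, and neutrophil markers to 46.7 to 161, 114 to 646 and 431 to 955. Skeletal muscle markers summed to 28.4 to 94.5, 127 to 265 and 40.5 to 881 FPKM and epithelial tumour cell markers to 46.0 to 67.6, 76.2 to 106 and 104 to 128. No marker of these lists was at 0 in all samples of a group. The part of these cells in the results on the 10 genes was not tested.

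To set the effector genes beside the T cell signal of the same tumour, each was divided by the summed FPKM of Cd3d, Cd3e and Cd3g, the signalling chains of the T cell receptor. That sum was 3.30 ± 0.0914 FPKM with vehicle, 7.39 ± 2.22 at the low dose and 2.25 ± 1.34 at the high dose (SD, n = 3). Gzmb amounted to 154%, 202% and 150% of it with vehicle, 250%, 358% and 407% at the low dose, and 459%, 415% and 980% at the high dose. On this scale the 3 groups were fully separated, in the order of the dose. Of all tested genes 81.2% were likewise higher at the high than at the low dose without overlap. The step between the doses is thus not particular to Gzmb, which in FPKM was lower at the high dose. Prf1 was at 32.5%, 29.3% and 38.4%, then 66.2%, 107% and 92.2%, then 83.7%, 119% and 311%. Both doses were above vehicle, and they overlapped each other.

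Eomes stood at 4.63% ± 1.16 of the Cd3 sum with vehicle, 19.6% ± 6.56 at the low dose and 98.6% ± 34.5 at the high dose, again without overlap between any of the groups. Its step between the doses is likewise one that 81.2% of all tested genes took on this scale. Gzmk was at 52.0% ± 2.38 with vehicle and lower at both doses, at 16.9% ± 3.27 and 19.9% ± 6.53. Nkg7 and Klrd1, which rose in FPKM at the low dose, did not separate from vehicle there on this scale, with 240% ± 19.4 against 245% ± 37.2 for Nkg7 and 67.3% ± 16.9 against 61.3% ± 7.99 for Klrd1. Klrk1 was at 13.4% ± 1.24, 19.7% ± 4.26 and 18.8% ± 6.56, and Ifng at 4.87% ± 1.78, 13.2% ± 2.89 and 8.04% ± 1.62. Gzma was at 231.5% ± 8.58, 89.2% ± 41.3 and 351% ± 235.5 and Ncr1 at 13.6% ± 4.62, 4.52% ± 2.90 and 22.2% ± 13.7, both lowest at the low dose (all SD, n = 3).

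**Figure D4:**
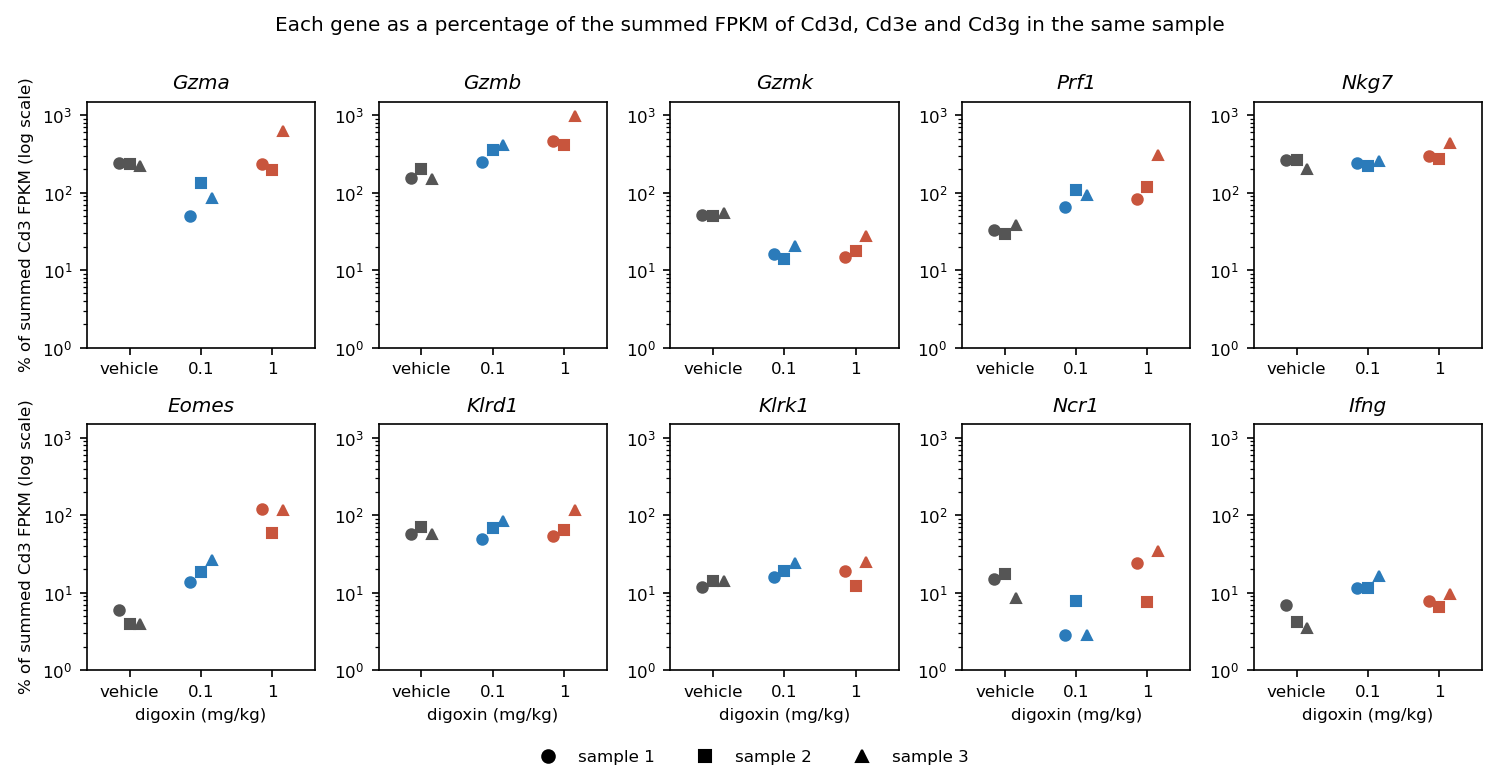
Each gene as a percentage of the summed FPKM of Cd3d, Cd3e and Cd3g in the same sample (y axis, log scale) by dose of digoxin (x axis, mg/kg). Each point is 1 sample. Gzmb and Eomes climb from vehicle through the low to the high dose, Gzmk is lower at both doses, and Nkg7 and Klrd1 at the low dose overlap vehicle. Of all tested genes 81.2% were higher at the high than at the low dose on this scale, without overlap.

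Relative to Cd3, values at the low dose did not overlap vehicle for 8 of the 10 genes, 5 higher (Gzmb, Prf1, Eomes, Klrk1 and Ifng) and 3 lower (Gzma, Gzmk and Ncr1). Of all tested genes 84.3% did not overlap on this scale, 6.13% higher and 78.1% lower. The Cd3 sum itself was higher at this dose in every sample. At the high dose 4 of 10 were higher (Gzmb, Prf1, Nkg7 and Eomes) and 1 lower (Gzmk), against 33.8% of all tested genes without overlap, 32.1% higher and 1.75% lower. Without sample 2 at the high dose, 7 were higher and 1 lower. That sample had the highest Cd3 sum of its group, 3.80 FPKM against 1.39 and 1.57. The share of all tested genes was not computed without it, so this count cannot be read as particular to these genes. On the scale of Cd3, 4 were higher at the high than at the low dose (Gzma, Gzmb, Nkg7 and Eomes) and 1 lower (Ifng), against 81.3% without overlap, 81.2% higher and 0.0511% lower. Divided instead by the summed FPKM of Trbc1, Trbc2 and Trac, the chains of the receptor itself, Gzmb, Prf1, Eomes and Ifng were higher at the low dose without overlap and Gzma, Gzmk, Nkg7 and Ncr1 lower. Nkg7 thus lay below vehicle there (40.3% against 53.3% on average) and Klrk1 overlapped it. With the high dose Gzmb, Prf1 and Eomes were higher, Gzmk was lower, and Nkg7 overlapped vehicle. Prf1 and Ncr1 also separated between the doses on that scale, both higher at the high dose, as did Gzma, Gzmb, Nkg7 and Eomes, with Ifng lower. The receptor chains themselves summed to 13 to 17.3 FPKM with vehicle, 32 to 54.2 at the low dose and 6.07 to 21.9 at the high dose. The share of all tested genes without overlap was not computed on that scale. Its separations therefore cannot be read as particular to these genes. With 3 against 3 no exact two-sided permutation test can go below p 0.1, and the smallest value adjusted over the 30 comparisons was 0.167.

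Granzymes C to G, encoded in the same cluster as Gzmb and largely restricted to strongly activated killer cells, were tested for 5 genes. Mean FPKM of Gzmd, Gzme, Gzmf and Gzmg was at least 11.2-fold that of vehicle at each dose, above the 4.35-fold and 2.25-fold of Gzmb, while Gzmc was 3.62-fold higher at the low dose. Of the 7 other granzyme genes 5 were tested: 3 rose at the low dose (Gzmd, Gzme and Gzmf) and 5 at the high dose, with 0 lower and median log2 differences of 2.72 and 3.03. Gzme was under 1 FPKM in every vehicle sample and was tested only because it is high with digoxin. Vehicle values alone would not have brought Gzmd, Gzmf or Gzmg into the test either. In the vehicle samples Gzmd was at 0.427, 1.62 and 0.721 FPKM and Gzmg at 0.317, 2.13 and 0.764. The counts of this list are therefore a description. Of all tested genes 21.6% rose at the low and 20.7% at the high dose, and the same shares stand behind each list below. Gzmf was at 0.0895, 1.00 and 0.672 FPKM with vehicle, 9.85, 19.7 and 17.7 at the low dose, and 2.16, 30.8 and 33.3 at the high dose. All digoxin samples lay above vehicle, and sample 1 at the high dose was the lowest of them. Gzmf rose by log2 3.39 (SE 0.81, adjusted p 0.0118) and 3.30 (SE 0.81, adjusted p 0.0117). Gzmg in sample 1 at the high dose, at 1.64 FPKM, lay inside the vehicle range of 0.317 to 2.13, and without 1 library its log2 difference at that dose ranged from 2.30 to 4.33, the latter without that sample. Gzmc, with the smallest p between the doses, differed by log2 0.38 (adjusted p 0.838).

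**Figure D5:**
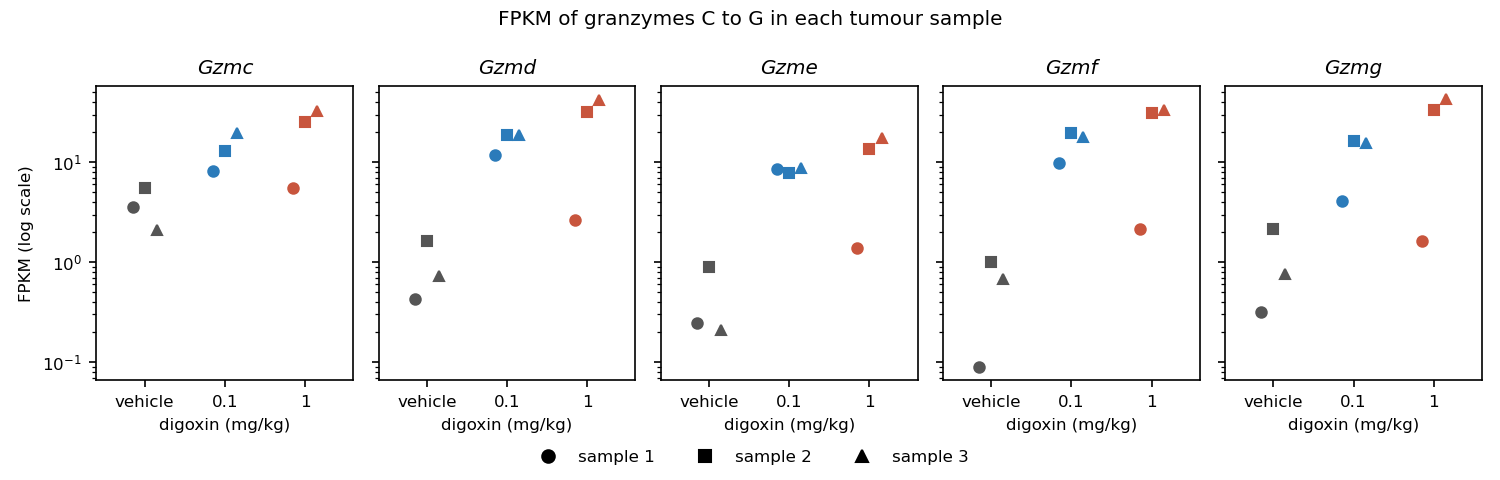
FPKM of granzymes C to G in each sample (y axis, log scale) by dose of digoxin (x axis, mg/kg). Each point is 1 sample; samples 2 and 3 at the high dose are the highest for all 5 genes, and sample 1 at the high dose lies below every sample at the low dose.

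Markers of other cells followed the same samples at the high dose. Gzmd was at 2.65, 32.2 and 41.6 FPKM there, the mast cell protease Cma1 at 2.91, 18.95 and 25.6, and the muscle myosin Myh4 at 0.763, 21.5 and 65.4. In all 3 genes sample 1 was the lowest and sample 3 the highest. With the low dose Cma1 was at 11.1 to 18.9 FPKM and Myh4 at 6.58 to 23.9, each above its vehicle range of 4.45 to 6.77 and 0.542 to 1.33. The part of these cells in the granzyme values was not tested.

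Without the 2 libraries between the groups, all 5 of these granzymes passed at both doses, with median log2 differences of 2.76 and 4.33. In limma-voom 2 of 5 passed at the high dose (Gzmc, adjusted p 0.0438, and Gzme, 0.0319), and Gzmd (0.0511) and Gzmf (0.0533) missed. The call of Gzmc at the high dose was lost without vehicle sample 1 or 3 or without sample 2 or 3 at that dose (adjusted p up to 0.0840), and that of Gzmg also without vehicle sample 2 (adjusted p up to 0.117). These genes are near-identical copies, so reads may be split among them, and the exons of Gzmf overlap Gm4022 on the other strand. Gzmm was below the filter with group means of 0.437 to 0.475 FPKM, and Gzmn was listed at 0 in the vehicle samples.

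Among genes of granule storage and exocytosis, 4 of 9 tested rose at each dose and 0 fell, against 21.6% and 20.7% of all tested genes that rose (median log2 0.53 and 0.16). Unc13d (Munc13-4), which primes granules for fusion, measured 1.99 ± 0.147 FPKM with vehicle, 9.34 ± 2.80 at the low dose and 7.86 ± 1.19 at the high dose, a rise of log2 1.75 (adjusted p 0.000760) and 1.56 (adjusted p 0.000962). Its partners in that step, Stx11 (log2 1.08 and 1.54) and Stxbp2 (log2 1.39 and 1.33), also rose at both doses. Serglycin (Srgn), the proteoglycan that holds granzymes in the granule, rose at the high dose only in this test (log2 1.18, adjusted p 0.0161, against 0.55, adjusted p 0.183, at the low dose), a call lost without vehicle sample 2 or 3 (adjusted p up to 0.0620). Cathepsin C (Ctsc), which activates granzymes, rose at the low dose (log2 0.53, adjusted p 0.0475) and gave -0.87 between the doses (adjusted p 0.117). The Ctsc call was lost under quantile normalisation, rescaling to TPM and equal medians, and without any one vehicle sample, sample 1 or 3 at the low dose or sample 3 at the high dose (adjusted p up to 0.154).

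Genes listed here as inhibitors of granzymes rose in all 6 tested at the low dose and in 5 at the high dose (median log2 2.21 and 1.62). Whether the product of each blocks a granzyme was not tested. Serpinb9g, one of these, was at 0 to 0.245 FPKM with vehicle and at 1.27 to 6.10 with digoxin, so that only its digoxin values brought it into the test. Vehicle values alone would not have brought in Serpinb9b either, at 2.17, 0.883 and 0.893 FPKM. The counts of this list are therefore a description. Serpinb9b had the smallest p of the list, with 1.32 ± 0.741 FPKM in vehicle tumours, 21.1 ± 3.27 at the low dose and 19.6 ± 0.308 at the high dose (log2 3.29, adjusted p 0.000101, and 3.2, adjusted p 8.17e-05). Serpinb9, the mouse inhibitor of granzyme B, was at 10.1 ± 1.58, 15.7 ± 1.90 and 14.0 ± 1.74 FPKM (log2 0.60, adjusted p 0.00944, and 0.44, adjusted p 0.0282). Its call at the high dose was lost without vehicle sample 1 or 3 or without sample 2 or 3 at that dose (adjusted p up to 0.0955), and after rescaling to TPM. Serpina3g had the smallest p between the doses, at 1.90, 14.2 and 2.98 FPKM on average (log2 -1.93 from the low to the high dose, adjusted p 0.120). Serpinb9, Serpinb9b and Serpinb9g are close copies, and these genes are also made by cells other than lymphocytes.

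Of 4 tested death ligand and receptor genes, 3 rose at the low dose (Fas, Tnf and Tnfsf10) and 3 at the high dose (Fas, Tnf and Tnfrsf10b). The calls of Tnfsf10 and Tnfrsf10b were lost in 2 and 4 fits without 1 library, samples 1 and 3 at the low dose for the former and vehicle samples 2 and 3 and samples 2 and 3 at the high dose for the latter (adjusted p up to 0.0604 and 0.100). Tnfsf10 also missed after quantile normalisation and Tnfrsf10b after rescaling to TPM, and Tnfsf10 had no vehicle sample at 1 FPKM. The receptor Fas rose by log2 1.27 (adjusted p 0.00876) and 1.28 (adjusted p 0.00750). Tnf rose by log2 1.43 at the low dose (adjusted p 0.0262) and 2.11 at the high dose (adjusted p 0.00504). The former was lost without any one vehicle sample or without sample 1 or 3 at the low dose (adjusted p up to 0.0850). Fasl, the lymphocyte ligand of Fas, was below the filter at 0.508 to 0.908 FPKM with vehicle, 0.481 to 0.906 at the low dose and 0.122 to 0.255 at the high dose, so that only the high dose lay wholly below vehicle. Tnfsf10 (TRAIL), with the smallest p between the doses, gave log2 -0.49 (adjusted p 0.308).

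Of 8 tested transcription factors of effector lymphocytes other than Eomes, 1 rose at the low dose, Batf (log2 1.38, adjusted p 0.00243), where 21.6% of all tested genes rose. With the high dose Nfil3 (log2 1.41, adjusted p 0.00239), Bhlhe40 (log2 1.65, adjusted p 0.00540) and Batf (log2 0.67, adjusted p 0.0335) rose, and Tcf7, which marks memory and stem-like T cells, fell by log2 0.38 (adjusted p 0.0388). Batf at the high dose was lost without vehicle sample 2 or 3 or without sample 2 or 3 at that dose (adjusted p up to 0.115), and Tcf7 without any one vehicle sample or sample 1 or 3 at that dose (up to 0.112). Between the doses Tcf7 gave log2 -0.48 (adjusted p 0.179). Tcf7 was at 0.619 to 0.931 FPKM at the high dose, so only the other groups brought it into the test.

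Among 17 receptor and adaptor genes of the NK and NKG2 systems, 10 were below the filter. Of the 7 tested, 4 rose at the low dose (Klrc1, Hcst, Tyrobp and Fcgr3) and 2 at the high dose (Klra4 and Fcgr3), against 21.6% and 20.7% of all tested genes. Klrc1 (NKG2A), the inhibitory partner of Klrd1, was at 1.25, 2.59 and 0.734 FPKM on average, with log2 0.66 at the low dose (adjusted p 0.0462) and -1.06 between the doses (adjusted p 0.120). The Klrc1 call was lost in 6 of 9 fits without 1 library, namely any vehicle sample, sample 1 or 3 at the low dose, or sample 3 at the high dose (adjusted p up to 0.154), and after quantile normalisation or rescaling to TPM. Hcst (DAP10), the adaptor of Klrk1, rose at the low dose from 3.14 ± 0.728 to 7.84 ± 0.876 FPKM (log2 1.11, adjusted p 0.00313) and stood at 4.60 ± 1.20 at the high dose (adjusted p 0.0897). Tyrobp (DAP12) was at 133 to 167, 196 to 310.5 and 153 to 192.5 FPKM (adjusted p 0.00804 and 0.248) and Fcgr3 rose by log2 1.33 (adjusted p 0.00263) and 0.88 (adjusted p 0.0112). Both are also expressed by macrophages, whose marker sums are given above.

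Ligands of these receptors rose in 4 of 5 tested genes at each dose. H2-T23 (Qa-1), the ligand of Klrd1 with Klrc1, was at 24.4 ± 0.787 FPKM with vehicle, 104 ± 24.1 at the low dose and 84.6 ± 19.0 at the high dose (log2 2.02, adjusted p 0.000383, and 1.73, adjusted p 0.000545). Raet1d, one of the NKG2D ligands, rose by log2 1.58 (adjusted p 0.00129) and 1.76 (adjusted p 0.000772), though its family members are near-identical. Ulbp1 rose by log2 0.95 (adjusted p 0.0138) and 0.82 (adjusted p 0.0218), and both calls were lost in some fits without 1 library (vehicle sample 2 or sample 1 or 3 at the low dose for the former, vehicle sample 1 or 2 or sample 2 or 3 at the high dose for the latter, adjusted p up to 0.0530 and 0.0754). Cfp (properdin), a ligand described for Ncr1, rose at the low dose by log2 1.00 (adjusted p 0.00480) and gave 0.39 (adjusted p 0.122) at the high dose.

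Of 10 tested cytokine and receptor genes that drive effector cells, 7 rose at the low dose and 0 fell, and 6 rose and 2 fell at the high dose. Il2rb, the signalling chain shared by the interleukin-2 and interleukin-15 receptors, was at 2.75 ± 0.213, 8.11 ± 2.24 and 3.71 ± 1.77 FPKM (log2 1.25, adjusted p 0.0116, and 0.25, adjusted p 0.521). Il2rg rose at both doses (log2 1.69, adjusted p 0.00135, and 1.66, adjusted p 0.00119), as did Il27 (log2 1.67, adjusted p 0.000584, and 0.98, adjusted p 0.00340). Il27 and Il12a, both counted among those that rose, were under 1 FPKM in every vehicle sample. Il21r fell at the high dose by log2 0.60 (adjusted p 0.00919) and gave -0.88 between the doses (adjusted p 0.0926).

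Chemokines and receptors of effector lymphocytes rose in 6 of 9 tested genes at the low dose, and 3 rose and 2 fell at the high dose. Cxcl9, which interferon-gamma induces and which attracts T cells, was at 8.60 ± 1.90 FPKM with vehicle, 64.5 ± 31.3 at the low dose (log2 2.65, adjusted p 0.00850) and 12.8 ± 11.1 at the high dose (log2 0.22, adjusted p 0.777). Cxcl10 rose at both doses (log2 2.14, adjusted p 0.000473, and 1.46, adjusted p 0.00149). Ccl5, a chemokine of activated T and NK cells, rose at the low dose only in this test (log2 1.38, adjusted p 0.00929, against -0.32, adjusted p 0.419), while Ccl3 and Ccl4 rose at both. Cxcr6, a receptor of tissue effector T cells, fell at the high dose by log2 0.73 (adjusted p 0.0134) and gave -1.16 between the doses (adjusted p 0.0926).

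Genes of interferon-gamma signalling and its targets rose in 9 of 13 tested genes at the low dose and in 8 at the high dose, and 1 and 2 fell. The GTPase gene Igtp was at 11.6 ± 1.06 FPKM with vehicle, 63.6 to 137 at the low dose and 47.2 to 69.9 at the high dose (log2 2.96, adjusted p 0.000287, and 2.21, adjusted p 0.000675). The receptor gene Ifngr1 fell at both doses, by log2 0.43 (adjusted p 0.0337) and 0.50 (adjusted p 0.0171). The fall of Ifngr1 was lost without any one sample of vehicle or the low dose for the former (adjusted p up to 0.0900) and without vehicle sample 2 or 3 for the latter (up to 0.0534). Ciita, the switch of MHC class II genes, fell at the high dose by log2 0.73 (adjusted p 0.0184), lost without vehicle sample 3 or sample 3 at the high dose (adjusted p up to 0.0724), and gave -1.0 between the doses (adjusted p 0.112). No sample at the high dose reached 1 FPKM for Ciita, which passed the filter through the other groups only. At the high dose Igtp stood above vehicle while Ifng itself measured 0.170 ± 0.0705 against 0.160 ± 0.0547 FPKM (SD, n = 3). Type I interferons induce many of the same genes, and what raised the targets in these tumours was not tested.

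No gene of these 10 lists passed the test between the doses. Of the 48 listed genes that passed at the low dose and the 50 at the high dose, 40 and 35 passed in every fit without 1 library. Over these and the marker lists together 73 genes passed at the low and 69 at the high dose. Of the 73, 11 missed after quantile normalisation, 8 after rescaling to TPM and 2 with equal medians, and of the 69, 1, 2 and 0 did. None of the 73 or 69 changed direction under these 3 scalings.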

How the data were processed

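The authors deposited 1 table of FPKM values per gene for 9 libraries. Per the labels' protocols, poly(A) RNA was sequenced as paired reads on an Illumina NovaSeq. The submitters' processing notes name HISAT2 2.2.1, fastp 0.22.0 and GRCh38. The latter is a human build, although the deposited symbols are of mouse genes. Gene lengths fitted from the FPKM values equal merged mouse GENCODE exons for 95.5% of 13040 matched genes. For the counting tool and strand setting, the sources used here give nothing.

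Genes that reached 1 FPKM in 3 or more of the 9 samples (13687 of 35321) were tested on log2(FPKM + 1) with limma 3.58.1 in R 4.3.3, with 1 mean per group, a mean-variance trend and p-values adjusted by Benjamini-Hochberg, with a threshold of 0.05. Single ratios and genes below the filter were tested with exact permutation tests, also in R. Reads were recovered from the spacing of the FPKM values (whole within 0.03 reads for 99.93% of genes) and used for limma-voom as an alternative, in which 21482 genes were tested with a filter of 0.1 FPKM. Intervals cover the spread between samples. The fitting code was tested on simulated data. Other filters, pseudocounts, scalings, a replicate block and leaving out libraries were tried.

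The members, gene lists (172 symbols, 163 found) and the doubt about 2 libraries were chosen with earlier results of these data known. Of each pathway list the gene with the smallest p in each comparison is named, with Tbx21, Fasl, Serpinb9, Klrb1c, Tyrobp, Hcst, Il2rb, Cxcl9, Cd3e, Cd8a and Cd4. Other list genes named beside them, such as Stxbp2, Srgn, Bhlhe40, Raet1d, Ulbp1, Ifngr1, Ccl3, Ccl4 and Ccl5, were chosen after their values were seen. The 5 genes most like Gzmb, Prf1 and Ifng are named by Pearson correlation. Promoters are from RefSeq, GRCm38.p6.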

Additional observations from a re-analysis of the deposited data

How the results depend on the processing

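Of the counts over the 10 genes, 80 of 96 values under alternatives stayed within 1.5 times the reported one. At the low dose against vehicle, 2 genes passed under a minimum mean of 5 FPKM, and 3 to 5 passed without 1 library. With no filter the count there stayed at 5, but Klrk1 and Ifng passed in place of Nkg7 and Klrd1. At the high dose 2 passed with no filter, 1 under a minimum mean of 5 FPKM, 2 in limma-voom, 2 in limma-voom with a filter of 0.1 FPKM, and 2 to 4 without 1 library. Between the doses 4 passed when the 2 libraries lying between groups were left out. Relative to Cd3 at the high dose, 5 to 8 genes did not overlap vehicle without 1 library, 8 of them without sample 2 at that dose. The share of all tested genes was not computed for these alternatives relative to Cd3. For the other alternatives at the low dose it was 47.4% under that minimum mean, 14.1% with no filter and 24.9% to 51.7% without 1 library. At the high dose it was 50.8%, 16.1% and 30.2% to 53.9%, with 46.1% in limma-voom and 34.3% in limma-voom with a filter of 0.1 FPKM. Between the doses it was 3.4% without both libraries. The labels do not say whether the replicate numbers pair the samples. Correlations of the deviations of same-numbered samples were -0.44 to 0.28, with 3 of 9 over 0.1. Those of differently numbered samples were -0.48 to 0.52, with 5 of 18 over 0.1. Values from 3 samples per group cannot decide whether the numbers pair them. With the number as a replicate block 4 genes passed at each dose and 0 between doses, and over all genes 4967, 5541 and 0 passed.

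Values of 3 genes changed sign. Against vehicle at the high dose, Gzma gave log2 0.14, Nkg7 0.061 and Klrd1 0.049 without sample 1 at that dose, alone or with sample 2 at the low dose, and without 1 library the lowest values were -0.53 for Gzma, -0.52 for Nkg7 and -0.44 for Klrd1. Between the doses Gzma gave -0.06 without sample 1 at the low dose, -0.03 without sample 2 and -0.21 without sample 3 at the high dose, and at most 0.46. None of these values passed the test, and the cause was not tested. Over all genes, 3414 to 7074 passed at the low dose and 4129 to 7373 at the high dose without 1 library, and 4159 at the high dose under a minimum mean of 5 FPKM. Between the doses 2 genes passed as reported, 0 with a pseudocount of 0.1 or 0.01, with only the 2 groups fitted, with the block or in limma-voom with a filter of 0.1 FPKM, 10 with no filter, 1 under that minimum mean, 5 with a filter of 0.1 FPKM, 1 with equal medians, 1 with no trend, 465 without both libraries, and 0 to 133 without 1 library, 133 of them without sample 2 at the low dose.

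Scaling moved the balance of calls over all genes. At the low dose 2952 genes rose and 2829 fell as reported, against 2403 and 3552 after quantile normalisation and 2368 and 3790 after rescaling to TPM. The median log2 difference of all genes was 0.02 at the low and -0.04 at the high dose as reported, and -0.09 and -0.12 after rescaling to TPM. The calls of the 10 genes stayed at 5 higher and 0 lower, and 3 higher and 1 lower, under the 3 scalings. Ncr1 had 14 to 44 reads per sample and Ifng 6 to 68, which limits their precision.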
